A study of Mus musculus with 8 samples.

Results

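The genes described here belong to bone morphogenetic protein (BMP) signalling: the ligand genes Bmp2, Bmp4 and Bmp7, the extracellular antagonist genes Grem1 and Bmper, the Id genes Id1, Id2 and Id3, and the inhibitory Smad genes Smad6 and Smad7. They were found by matching the accession of every probe on the array to these symbols. All 10 genes were on the array, out of 20887 named genes, with 11 probes in all, since Bmp4 had 2 probes and each of the others had 1. Expression was measured in whole kidneys of mouse embryos (strain C57BL/6) at embryonic day 16.5. The wildtype group (WT, labelled as control) and the knockout group (KO, labelled DOT1-null) held 4 pairs of kidneys each. In the KO kidneys Dot1, taken here as the histone methyltransferase gene Dot1l, was deleted conditionally in nephron progenitors, the cells that express the transcription factor Six2. Cells of these kidneys that do not descend from such progenitors are outside the labelled deletion, and the labels used here name no Cre transgene.

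BMP ligands bind pairs of type I and type II receptor kinases on the cell surface, which phosphorylate the receptor-regulated Smad proteins. These enter the nucleus with Smad4 and switch on genes such as the Id genes, whose products block basic helix-loop-helix transcription factors, and Smad6 and Smad7, whose products inhibit the pathway in turn. In the developing kidney Bmp7 is known to keep nephron progenitors alive, Bmp4 from the mesenchyme around the ureter restrains branching of the ureteric bud, and gremlin, the product of Grem1, relieves that restraint.

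Each sample was labelled red and hybridised with the same green-labelled WT1 RNA, so a value is the log2 ratio of a sample over that reference, and the WT1 array was a self-hybridisation. On that array of one RNA against itself, the median probe was off 0 by a log2 ratio of 0.12 in size and 95% of probes by no more than 0.41, and the median SD between arrays of a group was 0.15 in WT and 0.12 in KO. Precision is limited by the number of arrays. The WT1 and KO1 arrays stood apart: their red negative-control medians were 1361 and 478.25 scanner units, against 58 to 61 on the 6 others. Their green signals, from the same RNA, correlated with those of the 6 others at a median r of 0.562 and 0.904, against 0.996 to 0.997 among these 6. The differences, the pair comparisons and the list counts were therefore also computed without these 2 arrays. The spread given above for the self-hybridised array is that of WT1 and may not hold for the 6 others. By the Y-linked gene Ddx3y, all 4 KO embryos and 1 WT embryo (WT2) were male and 3 WT embryos were female. All WT arrays lay in row 1 of the slide and all KO arrays in row 2, so slide row and group cannot be told apart. Each of 11 kidney marker genes had a probe well above background on at least 7 of the 8 arrays. The Dot1l probe differed by 0.03 ± 0.08 (SE; limma adjusted p = 0.927), and where it lies relative to the deleted part was not analysed here, so it does not check the labels.

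Of the 10 genes, Bmp2 fell in KO kidneys, by 0.65 on the log2 scale, and no other member passed the test in either direction. Smad7 and a second Bmp4 probe were too dim to be tested. Limma called 1 of the 9 tested member probes lower and 0 higher at an adjusted p under 0.05, against 0.419% lower, 1.11% higher and 1.53% in either direction over all 18146 named probes tested (76 lower, 202 higher; 43 lower and 60 higher with the scanner software's own ratios). At an unadjusted p under 0.05, 3 member probes were lower (Bmp2, Bmp7 and Bmper) and 2 higher (Id1 and Id2), and over all probes 13.2% reached this level (3.46% lower, 9.73% higher). The median difference was 0.02 over the 9 member probes and 0.02 over all probes. In 3 members the KO values did not overlap with the WT values, lower for Bmp2 and Bmp7 and higher for Id2, as in 8.55% of all probes (2.63% lower, 5.92% higher).

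**Figure D1:**
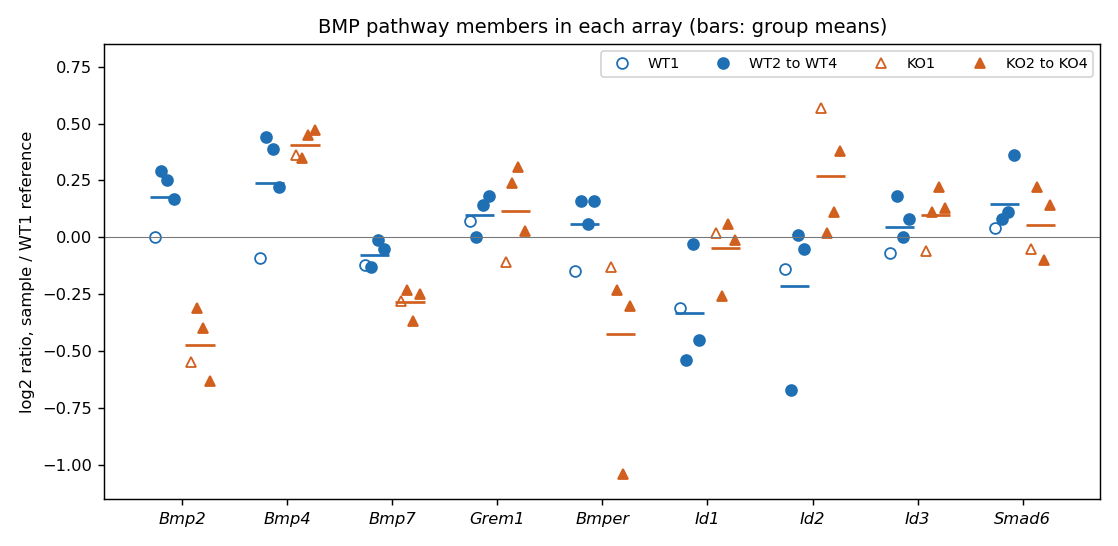
Log2 ratios of each sample over the WT1 reference (vertical axis) for the 9 members with a testable probe, with WT arrays as circles, KO arrays as triangles, WT1 and KO1 as open symbols and group means as bars. The 4 KO values of Bmp2, from -0.63 to -0.31, lie below all WT values, from 0.00 to 0.29, while the groups overlap for 6 members.

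Bmp2 encodes a BMP ligand that is made in the early epithelial structures of the forming nephron. Its log2 ratios were 0.00, 0.29, 0.25 and 0.17 in WT1 to WT4 and -0.55, -0.31, -0.40 and -0.63 in KO1 to KO4. The lowest WT value was that of the self-hybridised WT1 array, and the groups did not overlap. The difference was -0.65 ± 0.10 (SE, n = 4 per group; 95% interval -0.86 to -0.43), or 1.57-fold lower in KO (limma adjusted p = 0.00878). In a whole kidney, fewer cells that express Bmp2 and less Bmp2 RNA per cell cannot be told apart. The call held in each of the 8 fits that left out 1 array (differences of -0.71 to -0.60, adjusted p from 0.0128 to 0.0439) and without WT1 and KO1 together (-0.68 ± 0.10, adjusted p = 0.0215, where 0.369% of probes were called lower). With sex as a model term, which sets the KO arrays against the male WT2 array alone, it was -0.76 ± 0.16 and did not pass (adjusted p = 0.143, where 0.0496% of probes were called lower). With the red channel alone the difference was -0.16 on all 8 arrays, where the median of all probes was 0.18 (-0.34 relative to it; adjusted p = 0.994, with 0.00551% of probes called lower), and -0.67 on the 6 arrays (adjusted p = 0.036, with 0.253% called lower).

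The signals behind the Bmp2 ratio, before normalization, were lower on the KO arrays in both colours, and more so in red. Red Bmp2 signal was 966, 923 and 1217.5 scanner units in WT2 to WT4 and 660, 417.5 and 603 units in KO2 to KO4. The green signal of the reference was 347 to 374.5 units on these WT arrays and 311 to 335 units on these KO arrays. A lower raw green signal without overlap on the KO arrays was the rule on these 6 arrays, found in 58.2% of all probes. After normalization of the green channel by itself, the reference differed by 0.08 ± 0.04 at the Bmp2 probe between the KO and the WT arrays of these 6, in the direction opposite to the sample (limma adjusted p = 0.323). Over all 18146 probes limma called 0 differences in this reference channel, and 95% of the differences were at most 0.16 in size. At an unadjusted p under 0.05 (limma) there were 2953, more than the 2428 for the ratios of these 6 arrays. Small differences between the groups were thus widespread in the reference, and their cause was not tested. The comparison of the reference channel was chosen after the data were seen.

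**Figure D2:**
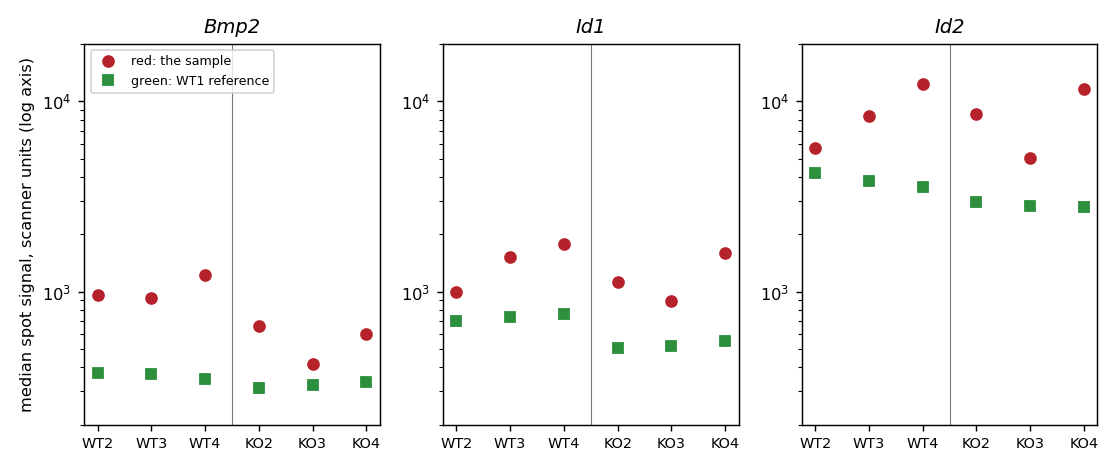
Median spot signal in scanner units (log axis) of Bmp2, Id1 and Id2 on the 6 arrays other than WT1 and KO1, with the sample in red and the common WT1 reference in green. The green signal is lower on the KO arrays for all 3 genes, as for 58.2% of all probes before normalization, and the red signal is lower without overlap for Bmp2 (417.5 to 660 against 923 to 1217.5 units) but overlaps for Id1 and Id2.

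Genes of other cell populations moved in the same arrays. All the cell type lists used here were drawn up with results of these data known, so their counts are descriptions only. Of 12 genes that mark nephrons in formation, a list that itself holds Bmp2, 6 fell (limma) and none rose, with a median of -0.42 over 14 probes (7 fell without WT1 and KO1). The mean log2 ratio of this list was -0.07 to 0.15 on the WT arrays and -0.46 to -0.30 on the KO arrays, and each of its 12 genes was measured. Examples were the Notch target Hes5 (-1.42 ± 0.19, SE) and the growth factor gene Fgf8 (-0.73 ± 0.09 and -0.48 ± 0.11 at its 2 probes). Of 12 nephron progenitor genes, 5 fell and none rose, with or without WT1 and KO1, with mean log2 ratios of -0.13 to 0.20 in WT and -0.74 to -0.58 in KO, and again all 12 were measured. Of 12 macrophage genes, 11 were measured and 5 rose (3 without WT1 and KO1), among them the mannose receptor gene Mrc1 (0.56 ± 0.08), none fell, and all 16 probes were above 0, with mean log2 ratios of -0.21 to -0.07 in WT and 0.16 to 0.30 in KO. Of 12 genes of the ureteric bud and collecting duct, all measured, only the keratin gene Krt19 passed as higher (0.54 ± 0.12) and none passed as lower. Their 12 probes had a median of 0.30 (0.28 without WT1 and KO1), with 8 above 0 and 4 below. At an unadjusted p under 0.05 (limma) 6 were higher and 1 lower, against 9.73% and 3.46% of all probes. Mean log2 ratios of this list were -0.23 to 0.01 in WT and -0.14 to 0.26 in KO. The part of these populations in the values of Bmp2 and Bmp7 was not tested.

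The probes whose ratios followed that of Bmp2 most closely over the 8 arrays belonged to Hoxa11os, an antisense RNA gene of the Hoxa cluster (Pearson r = 0.991), Kazald1 (r = 0.982) and Tmem267 (r = 0.979). Over the 6 arrays without WT1 and KO1 the r values were 0.989, 0.979 and 0.984. These values describe arrays that fall into the 2 groups, so a shared difference between KO and WT enters them. Hoxa11os differed by -0.57 ± 0.10 (SE; limma adjusted p = 0.017), Kazald1 by -1.11 ± 0.12 (adjusted p = 0.00161) and Tmem267 by -1.03 ± 0.18 (adjusted p = 0.0137).

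The other member ligands did not pass the test. Bmp7, the ligand of the progenitor zone and the ureteric bud, was measured on arrays WT1 to WT4 at log2 ratios of -0.12, -0.13, -0.01 and -0.05, and on KO1 to KO4 at -0.28, -0.23, -0.37 and -0.25. The KO values lay below all WT values, with SDs of 0.06 in each group. The difference was small, at -0.21 ± 0.08 (SE; 95% interval -0.38 to -0.04), and did not pass over all probes (limma adjusted p = 0.267). It had the same sign in all 22 alternative fits, from -0.28 to -0.15, and passed in none of them. Some of these fits, such as the one with the replicate block, cannot change the difference itself, and most share arrays. The shared sign is therefore not 22 separate results.

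Bmp4, the ligand of the mesenchyme around the ureter, stood at log2 ratios of -0.09, 0.44, 0.39 and 0.22 on arrays WT1 to WT4 and 0.36, 0.35, 0.45 and 0.47 on KO1 to KO4. The WT1 array was low and the other WT values reached into the KO range. The difference was 0.16 ± 0.11 (SE; 95% interval -0.08 to 0.41; limma adjusted p = 0.596). It was 0.07 without WT1 and KO1, and it turned to -0.06 with the red channel alone on these 6 arrays and to -0.04 with sex as a model term. The second Bmp4 probe was not well above background on any array (red signal of 57 to 66 units on the 6 arrays), so no difference is given for it.

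A comparison within each array set these ligands against one another. The log2 ratio of Bmp2 minus that of Bmp4 was -0.16 to 0.09 on the WT arrays and -1.10 to -0.66 on the KO arrays, a shift of -0.81. For Bmp2 minus Bmp7 the shift was -0.44, with WT arrays at 0.12 to 0.42 and KO arrays at -0.38 to -0.02, and for Bmp4 minus Bmp7 it was 0.37. In each of these 3 pairs the two-sided exact permutation p was 0.0286, the smallest that 70 splits of the 8 arrays can give, and 0.0667 after adjustment over the 7 pairs of members of like role that were compared. Within same-numbered arrays the exact p was 0.125, the smallest that 16 sign changes allow. Without WT1 and KO1 the 3 shifts were -0.75, -0.46 and 0.29 (exact permutation p = 0.1, the smallest possible with 6 arrays). The pairs were chosen after the values were seen, and those with Bmp2 are no support for its call.

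Bmper and Grem1 encode secreted proteins that bind BMPs; Bmper, also called crossveinless-2, can lower or raise signalling. Log2 ratios of Bmper were -0.15, 0.16, 0.06 and 0.16 in WT1 to WT4 and -0.13, -0.23, -1.04 and -0.30 in KO1 to KO4. The KO3 array was far below the others, and KO1 overlapped with WT1. The difference of -0.48 ± 0.17 (SE; limma adjusted p = 0.215) did not pass. Without KO3 it was -0.28 ± 0.10 (adjusted p = 0.295), a change in size of more than 1.5 times from 1 array. Without WT1 and KO1 it was -0.65 ± 0.19 (limma adjusted p = 0.166). With the red channel alone it was 0.30 on all 8 arrays, where the median of all probes was 0.18 (0.13 relative to it), but -0.70 on the 6 arrays.

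Grem1 was dim, with red signals of 94 to 134.5 units on the 6 arrays, and was not well above background on the WT1 and KO1 arrays. Its log2 ratios were 0.00 to 0.18 in WT and -0.11 to 0.31 in KO. The difference was 0.02 ± 0.10 (SE; 95% interval -0.20 to 0.25; limma adjusted p = 0.96). With the scanner software's ratios it was 0.31 ± 0.25 (adjusted p = 0.673). Between Bmper and Grem1 the shift within arrays was -0.51 (two-sided exact permutation p = 0.0857, adjusted over the 7 pairs 0.15), and -0.74 without WT1 and KO1.

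Of 12 genes that mark the kidney stroma, 5 rose in KO and none fell (limma; 3 rose without WT1 and KO1), among them the receptor gene Pdgfra (0.73 ± 0.11, SE) and the matrix gene Lum (0.70 ± 0.13). The mean log2 ratio of the list was -0.08 to 0.02 on the WT arrays and 0.26 to 0.43 on the KO arrays, and all 12 genes were measured. Ureteric and vascular smooth muscle was read from 10 genes, all measured, of which none passed (limma). Their 10 probes had a median of 0.14 (0.25 without WT1 and KO1), with 9 above 0 and 1 below. Mean log2 ratios of this list were -0.31 to -0.06 on the WT arrays and -0.29 to 0.23 on the KO arrays. The part of either list in the values of Bmp4, Bmper and Grem1 was not tested.

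The Id genes and Smad6 are read here as target genes of the pathway. Promoter sequences of 6 of the 10 members were in the RefSeq table for GRCm38.p6, and those of the target genes Id2, Id3 and Smad6 are shown. Whether BMP signals act on these genes through the windows shown was not tested. Each is the 250 bases before the start site, 5′ to 3′ on the strand of the gene. Capitals mark GGCGCC, a GC-rich motif that BMP-regulated Smad proteins can bind and that reads the same on both strands, and GTCT or, on the other strand, AGAC, the short Smad binding element. The motifs do not overlap each other in these sequences.
Id2 (chr12:25096093-25096342, minus strand): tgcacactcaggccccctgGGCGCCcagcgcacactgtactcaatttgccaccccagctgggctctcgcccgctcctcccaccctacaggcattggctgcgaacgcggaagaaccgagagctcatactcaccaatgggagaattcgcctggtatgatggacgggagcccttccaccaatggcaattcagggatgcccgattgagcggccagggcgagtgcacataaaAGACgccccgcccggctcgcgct
Id3 (chr4:136143572-136143821, plus strand): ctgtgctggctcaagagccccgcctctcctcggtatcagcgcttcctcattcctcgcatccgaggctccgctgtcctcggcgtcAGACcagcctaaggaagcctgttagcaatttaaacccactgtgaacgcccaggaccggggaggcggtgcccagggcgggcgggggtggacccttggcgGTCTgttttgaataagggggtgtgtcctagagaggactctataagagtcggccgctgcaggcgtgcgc
Smad6 (chr9:64022060-64022309, minus strand): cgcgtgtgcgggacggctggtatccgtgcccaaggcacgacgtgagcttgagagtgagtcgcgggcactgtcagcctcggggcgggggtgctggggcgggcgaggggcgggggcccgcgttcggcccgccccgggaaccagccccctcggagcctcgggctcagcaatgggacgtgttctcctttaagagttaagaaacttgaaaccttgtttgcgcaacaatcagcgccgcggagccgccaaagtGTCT
GGCGCC occurred once in the Id2 window, 231 to 226 bases before the start, and in neither of the other windows shown. Of the member windows not shown, that of Grem1, which differed by 0.02, also held it. In all, 9.59% of 32851 promoter windows of this length held it. GTCT or AGAC occurred once for Id2, once for Smad6 and at 2 places for Id3, and 82.9% of all windows held it. A match is a description of the letters only.

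Of the Id genes, Id2 had the largest difference. Its log2 ratios were -0.14, -0.67, 0.01 and -0.05 in WT1 to WT4 and 0.57, 0.02, 0.11 and 0.38 in KO1 to KO4. The groups did not overlap, but the highest WT array and the lowest KO array were only 0.01 apart as rounded, and WT2 was far below the rest. The difference was 0.48 ± 0.16 (SE; 1.40-fold higher; 95% interval 0.14 to 0.82), which did not pass (limma adjusted p = 0.178). With the replicate number as a block it was 0.48 ± 0.11 and passed (adjusted p = 0.0424; 2.39% of all probes were called higher in that fit), but with this block and without WT1 and KO1 it was 0.41 ± 0.12 and did not (adjusted p = 0.119; 2.29% of all probes called higher). Without WT2 it was 0.33 ± 0.13 (adjusted p = 0.352). With sex as a model term, which compares with WT2 alone, it was 0.94 ± 0.19 (adjusted p = 0.126).

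For Id1, arrays WT1 to WT4 gave log2 ratios of -0.31, -0.54, -0.03 and -0.45, and KO1 to KO4 gave 0.02, -0.26, 0.06 and -0.01. The WT3 array lay within the KO range and WT2 was again the lowest. The difference was 0.28 ± 0.12 (SE; 95% interval 0.03 to 0.54; limma adjusted p = 0.322), and 0.27 ± 0.15 without WT1 and KO1.

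The signals behind the Id ratios were as follows. Red Id2 signal was 5661, 8362.5 and 12390 units in WT2 to WT4 and 8612, 5025 and 11543 units in KO2 to KO4, and these ranges overlap. Green Id2 signal, which comes from one and the same reference, lay between 3557 and 4203 units on the WT arrays and between 2800 and 2965 units on the KO arrays of these 6. After normalization of each channel by itself on the 6 arrays, the reference differed by -0.16 ± 0.05 for Id2 (limma adjusted p = 0.205) and the sample by 0.22 ± 0.17 (adjusted p = 0.63). For Id1 the reference differed by -0.21 ± 0.06 (adjusted p = 0.172) and the sample by 0.01 ± 0.16 (adjusted p = 0.992). After this normalization the green values of the KO arrays lay below those of the WT arrays for Id1 and Id2 and above them for Bmp2, arrangements found in 11.1% and 11.4% of all probes, and no reference difference passed. The Id1 ratio on these arrays differed by 0.27 while its red channel differed by 0.01.

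Log2 ratios of Id3 were -0.07, 0.18, 0.00 and 0.08 in WT1 to WT4 and -0.06, 0.11, 0.22 and 0.13 in KO1 to KO4, and the groups overlapped almost completely. The difference was 0.05 ± 0.09 (SE; 95% interval -0.15 to 0.25; limma adjusted p = 0.87), and -0.08 with sex as a model term. Within arrays, Id2 minus Id3 shifted by 0.43, Id1 minus Id3 by 0.23 and Id1 minus Id2 by -0.20. The two-sided exact permutation p values were 0.229, 0.257 and 0.229, each 0.257 after adjustment over the 7 pairs, so unequal changes of the 3 Id genes were not shown.

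**Figure D3:**
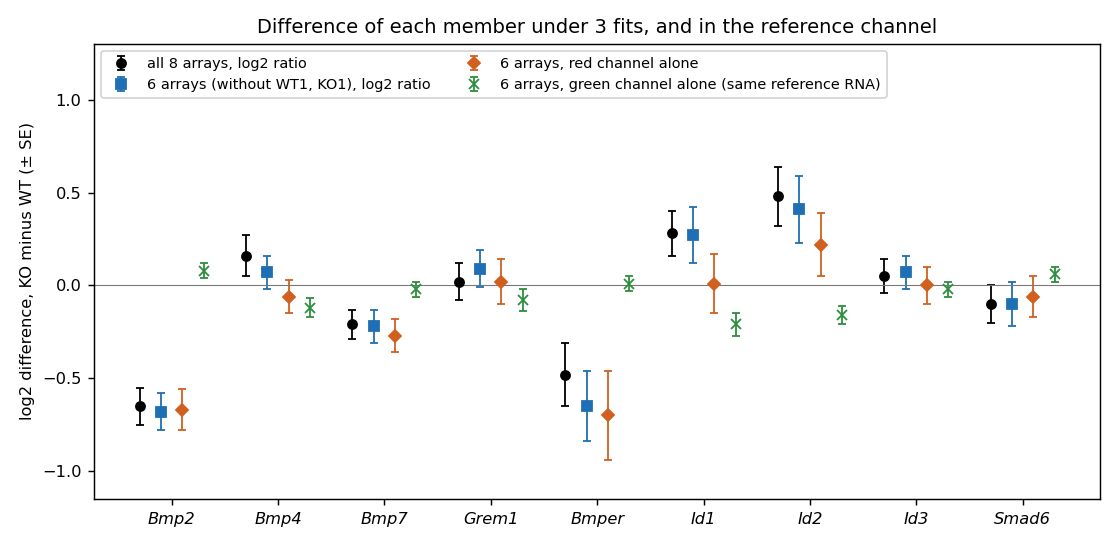
Difference between KO and WT (log2, ± SE) of each member from the ratios of all 8 arrays, the ratios of the 6 arrays without WT1 and KO1, the red channel alone and the green reference channel alone on these 6. Bmp2 lies at -0.65, -0.68 and -0.67 in the first 3 and at 0.08 in the reference, while Id1 lies at 0.28 and 0.27 in the ratios, at 0.01 in red and at -0.21 in the reference.

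Smad6 and Smad7 encode the inhibitory Smads, which close a feedback loop on the pathway. Log2 ratios of Smad6 were 0.04, 0.08, 0.11 and 0.36 in WT1 to WT4 and -0.05, 0.22, -0.10 and 0.14 in KO1 to KO4, with overlapping groups. The difference was -0.10 ± 0.10 (SE; 95% interval -0.32 to 0.13; limma adjusted p = 0.759). It turned to 0.45 with the red channel alone on all 8 arrays, where the median of all probes was 0.18 (0.27 relative to it). The Smad7 probe was not well above background on any array, with red signals of 54 to 64 units on the 6 arrays against negative-control medians of 58 to 61 units. It therefore gives no difference between the groups, and nothing about Smad7 can be read from these arrays.

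Endothelial cells are a known site of Id1, Id3 and Smad6 expression. None of 13 endothelial marker genes passed (limma, 17 probes, median 0.11), but 12 probes were above 0 and 5 below. At an unadjusted p under 0.05, 4 were higher and 0 lower, against 9.73% and 3.46% of all probes. Mean log2 ratios of this list were -0.17 to -0.05 on the WT arrays and -0.09 to 0.12 on the KO arrays. Id genes also respond within minutes to growth factors, as immediate early genes do. None of the 10 measured of 14 immediate early genes passed (limma, with 0 higher and 2 lower at an unadjusted p under 0.05). Mean log2 ratios of these genes were -0.09 to 0.02 on the WT arrays and -0.12 to 0.06 on the KO arrays. The part of either in the Id values was not tested.

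The rest of the pathway was examined over 63 further genes, of which 49 had a testable probe (62 probes). In these, limma called 2 probes lower and 0 higher (6 lower and 3 higher at an unadjusted p under 0.05, against 3.46% and 9.73% of all probes), with a median difference of 0.01 and as many probes above 0 as below it, 31 each. Among ligands, 11 of 16 genes were measured and Bmp2 alone passed; the next smallest p values were those of Gdf5, a ligand of joint and skeletal development (-0.30 ± 0.11, SE; adjusted p = 0.255), of Bmp7 and of Gdf7 (0.14 ± 0.08 and 0.08 ± 0.11 at its 2 probes). Of 20 genes of antagonists and modulators, 16 were measured and none passed (4 probes at an unadjusted p under 0.05). After Bmper, the smallest p values were those of Sostdc1, which encodes an antagonist also called USAG-1 (-0.29 ± 0.11 and -0.26 ± 0.11 at its 2 probes), and Kcp, an enhancer of BMP signalling in the kidney (0.26 ± 0.12; adjusted p = 0.378). Noggin, encoded by Nog, differed by -0.08 ± 0.09. Of the 3 proteases that cleave the BMP antagonist chordin, only Bmp1 was measured, with 3 probes between 0.00 and 0.18, none of which passed.

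Among receptors, 10 of 13 genes were measured and Acvr2b, which encodes a type II receptor shared by activins and BMPs, fell. Its log2 ratios were -0.13, 0.41, -0.01 and 0.25 in WT1 to WT4 and -0.56, -0.32, -0.41 and -0.48 in KO1 to KO4, without overlap. The difference was -0.58 ± 0.12 (SE; limma adjusted p = 0.0307). The call was lost in 6 of the 8 fits that left out 1 array (adjusted p up to 0.112; it held without WT1, at 0.0295, and without WT3, at 0.043) and held without WT1 and KO1 together (-0.63, adjusted p = 0.0421). It was also lost with the scanner software's ratios (adjusted p = 0.104), with the red channel alone on the 6 arrays (0.109) and with sex as a model term (-0.86, 0.117). The type I receptor genes Acvr1, at 0.22 and -0.04 at its 2 probes, Acvrl1 (0.18 ± 0.09) and Bmpr1a (0.22 ± 0.13) did not pass, nor did the co-receptor gene Tgfbr3 (0.24 ± 0.10) or the type II receptor gene Bmpr2 (-0.03 ± 0.10). None of the 10 measured genes of the Smad list passed, where 16 probes ranged from -0.15 to 0.15 and 0 had an unadjusted p under 0.05. The 2 probes of Smad4, the shared partner of the receptor-regulated Smads, gave -0.15 ± 0.11 and 0.15 ± 0.11, and those of Smad5, a receptor-regulated Smad, gave 0.15 ± 0.09 and 0.03 ± 0.10.

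Of 14 target genes, 12 were measured, 1 fell and none rose (limma; 2 probes higher and 2 lower at an unadjusted p under 0.05), with a median difference of 0.02. The gene that fell was Tmem100, which is known to respond to BMP signals in endothelium. Its log2 ratios were 0.01, -0.10, 0.01 and 0.19 in WT1 to WT4 and -0.30, -0.58, -0.66 and -0.56 in KO1 to KO4, and KO1 was the KO array closest to WT. The difference was -0.55 ± 0.10 (SE; limma adjusted p = 0.0185), and the call held in 4 of the 8 fits that left out 1 array (adjusted p from 0.00822 to 0.0774; it was lost without WT1, WT4, KO2 or KO4) and without WT1 and KO1 together (-0.63, adjusted p = 0.0264). It was also lost for Tmem100 with the scanner software's ratios (0.0781), the red channel alone on the 6 arrays (0.142) and sex as a model term (0.349). Hey1, which is a target of both BMP and Notch signals, did not pass, at -0.37 ± 0.10 without overlap of the groups (adjusted p = 0.0897). Hey1 did pass with array weights (-0.40 ± 0.08, adjusted p = 0.027), with WT1 left out (-0.45 ± 0.08, adjusted p = 0.0386) and with both WT1 and KO1 left out (-0.48 ± 0.09, adjusted p = 0.0394, or 0.0355 with the replicate block). The values of Msx1 (-0.05 ± 0.09), Msx2 (-0.06 ± 0.09) and Id4 (0.16 ± 0.11) did not pass.

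**Figure D4:**
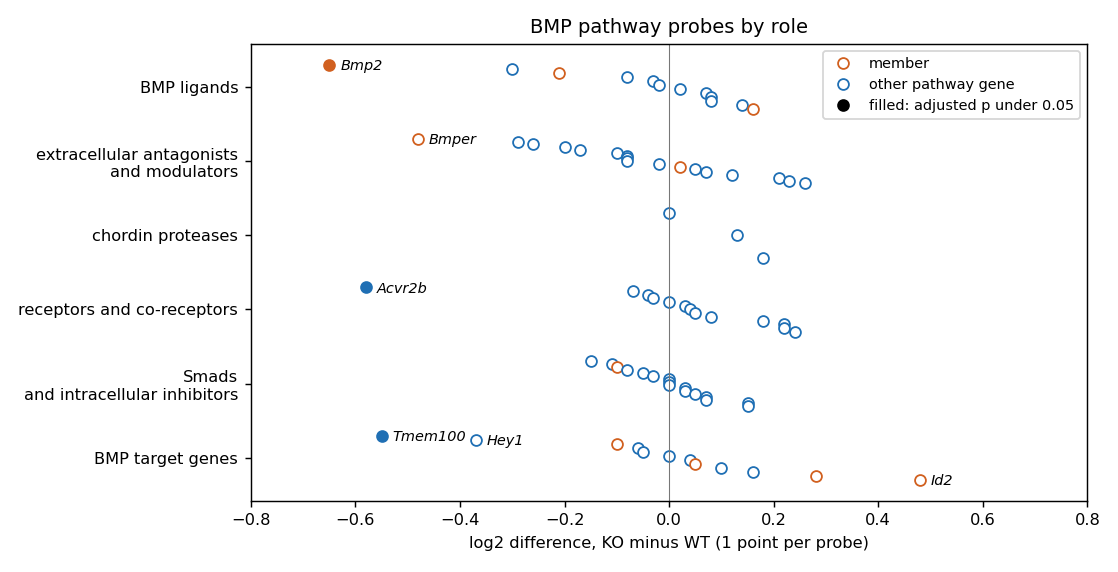
Difference between KO and WT (log2, horizontal axis) of each tested probe of the pathway, grouped by role, with members in orange, other genes in blue and filled points for an adjusted p under 0.05. The 3 filled points, Bmp2 (-0.65), Acvr2b (-0.58) and Tmem100 (-0.55), are all lower in KO, and the other probes spread to both sides of 0.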

How the data were processed

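Each array was read by the authors with Agilent Feature Extraction, version 10.7.3.1 per the submitters' processing notes. The deposited intensity values taken here were median spot signals in red and green and their local backgrounds, which carry no normalization, per the file headers. The processed signals among the deposited intensity values had background and dye correction by that software, and their red over green ratio is deposited as log10. The deposited table of the whole series held the same log10 ratios (largest gap 0.005). Further deposited columns hold flags of 0 or 1.

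With limma 3.58.1 in R 4.3.3, signals were corrected with normexp (offset 50) and loess within arrays, control spots at weight 0. Readings flagged as outliers were left out (0.372%), and no spot was saturated. Of 55681 probes, 27509 were named by RefSeq accession with the gene names of assembly GRCm38.p6; the file headers name mm9, so no probe coordinates are given. A probe was tested if well above background in red on at least 4 arrays, and each probe was kept, since each member is described by probe. Differences were tested with lmFit and eBayes on log2 ratios, with Benjamini-Hochberg adjustment over 18146 probes at 0.05. The fit was tested on simulated data with independent noise on each array. These held no arrays that stood apart and no deviations shared between arrays, so that test does not cover them.

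The members, lists and tests were chosen with earlier results of these data known. The rule for named genes gave the members, the pathway genes past the threshold and up to 3 others per list, and the 3 genes most alike to a called member; Nog, Bmpr1a, Bmpr2, Msx1, Msx2 and Id4 were added after their values were seen. The sample titles number pairs of kidneys and match no WT embryo to a KO embryo. Same-numbered samples share a slide column and deviated together (r of deviations from the group means of 0.144, 0.366, 0.233 and 0.313). The replicate number was therefore used as a block in alternative fits. However, WT4 deviated more with KO1 (0.359) than with KO4, and KO3 more with WT2 (0.317) than with WT3. The fit reported has no block, and the fit with the replicate block is given where it changes a call. Lists and pairs without WT1 and KO1, and pairs within numbers, were added after the data were seen. The design text calls the samples biological replicates.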

Additional observations from a re-analysis of the deposited data

How the results depend on the processing

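All 22 alternatives were run. Over all named probes the main counts were 202 higher and 76 lower. They were 60 and 43 with the scanner software's ratios, 434 and 116 with the replicate block, 415 and 131 with the replicate block without WT1 and KO1, 316 and 117 with array weights, 96 and 46 with the red channel alone without WT1 and KO1, and 4 and 9 with sex as a model term. They were 0 and 0 when arrays were centred on the median instead of by loess (203 probes at an unadjusted p under 0.05 in limma) and 0 and 1 with the red channel alone (112). The count of higher probes was 126 where a probe had to be well above background on all 8 arrays, in which fewer probes were tested. Leaving out 1 array gave 47 to 246 higher and 32 to 77 lower. Apart from the numbers of probes or arrays in a fit, the cause of these changes was not tested.

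Of the members, 1 was lower and 0 were higher. With the replicate block 1 was higher, Id2, and this block changed no other call of a member. The number lower was 0 with median centring, with the red channel alone and with sex as a model term, and it was 1 in every fit that left out 1 array. In those 3 settings Bmp2 differed by -0.65 (adjusted p = 1), -0.16 (0.994) and -0.76 (0.143). Over 22 alternatives it ranged from -0.76 to -0.16, and it passed in 19. These are not 22 separate results, since most share arrays and some, such as the replicate block, leave the difference itself unchanged.

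In the pathway lists, 3 probes were lower. The count was 1 with the scanner software's ratios and with the red channel alone without WT1 and KO1, and 0 with median centring, the red channel alone and sex as a model term. It was 1 to 3 where 1 array was left out. It was 4, with Hey1, with array weights and, with and without the replicate block, without WT1 and KO1. The count of higher probes was 1 with the replicate block.

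Signs turned only for members that had not passed. Grem1 was at -0.10 with median centring, -0.05 with the red channel alone, and at -0.01, -0.02 and -0.04 without WT2, KO2 and KO3 (-0.04 to 0.10 over the fits without 1 array). Bmper (0.30) and Smad6 (0.45) turned with the red channel alone, where they were at 0.13 and 0.27 relative to the median of all probes. Bmp4 turned with the red channel alone without WT1 and KO1 (-0.06) and with sex as a term (-0.04), and Id3 with sex as a term (-0.08). Signal over background limits Grem1, Smad7 and the second Bmp4 probe.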
